A study of Mus musculus with 2 samples.

Results

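The regions described here are the 500 tallest distal DNase-seq regions of the mouse adrenal gland, out of 43066 distal regions with a peak in both libraries. DNase-seq maps open chromatin by sequencing the places where the enzyme DNase I cut DNA in nuclei. The tissue was adult male, taken at 18 to 20 months of age, and of the hybrid strain B6CASTF1/J. The 2 libraries, labelled biological replicates 1 and 2, formed 1 group, and no treatment or other condition was compared. They carry separate tissue entries and 1 shared donor entry, so the labels do not say whether they came from separate animals.

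Joining every peak that overlapped another, over both libraries, gave 143793 regions, of which 65778 held a peak of each library. A region was called distal when it lay more than 1 kb from every start of a protein-coding transcript. The 500 were chosen by the mean of their heights in both libraries, a height being the authors' deposited signal value of the tallest peak in the region. Heights are therefore given as a description, with no test, and shares of the members are read against the same share over all 43066 regions where one is given. Those shares include the 500.

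Open distal chromatin in a tissue is usually a mixture. It holds enhancers bound by factors of that tissue, sites of CTCF (a zinc finger protein that anchors chromatin loops and marks domain borders), and promoters of transcripts that an annotation of protein-coding genes does not cover, such as long noncoding RNAs and tRNA genes. In the adrenal cortex, NR5A1 (steroidogenic factor 1) is the best known factor of steroid-producing cells. CpG-rich sequence is typical of promoters of widely expressed genes. Genes for ribosomal RNA exist in many tandem copies, most of them outside the reference assembly.

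The 500 were led by sequences that the genome holds in several copies, followed by CpG-rich sequence, tRNA genes and starts of noncoding or alternative transcripts, and then by CTCF sequences. The NR5A1 sequence was rare among them. Of the 500, 263 (52.6%) were CpG-rich, against 9.9% of all distal regions, 179 (35.8%) lay within 1 kb of another annotated transcript start, against 15.7%, and 105 (21%) held a CTCF consensus, against 11.7%. In the shorter of the authors' 2 peak lists per library, 17.3% of 24529 shared distal regions held a CTCF consensus. The CTCF share was also higher just below the 500, at 26.2% of ranks 501 to 1000. An NR5A1 consensus (TCAAGGNCA) was found in 1 of the 500 (0.2%), against 1.99%.

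The sequences of 5 of the 6 tallest regions are shown first because they show the DNA that heads the ranking. All are 150 bp windows at the region centre on the plus strand of GRCm38 (mm10), with capitals marking bases inside a 36-base word that occurs more than once on the reference chromosomes.
Rank 1, chr17:39846766-39846915: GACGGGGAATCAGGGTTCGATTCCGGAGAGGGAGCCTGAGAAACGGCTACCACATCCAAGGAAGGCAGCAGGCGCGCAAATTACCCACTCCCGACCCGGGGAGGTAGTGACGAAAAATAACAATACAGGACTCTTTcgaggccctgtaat
Rank 3, chr6:49236456-49236605: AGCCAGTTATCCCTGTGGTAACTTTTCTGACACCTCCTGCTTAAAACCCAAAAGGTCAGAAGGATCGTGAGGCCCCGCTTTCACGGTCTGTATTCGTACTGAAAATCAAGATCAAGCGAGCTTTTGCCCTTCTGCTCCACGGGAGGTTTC
Rank 4, chr16:35981671-35981820: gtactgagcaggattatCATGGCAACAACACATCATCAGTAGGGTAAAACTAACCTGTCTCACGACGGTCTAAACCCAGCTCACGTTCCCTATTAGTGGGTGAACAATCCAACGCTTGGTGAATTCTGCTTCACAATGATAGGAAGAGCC
Rank 5, chr13:112578166-112578315: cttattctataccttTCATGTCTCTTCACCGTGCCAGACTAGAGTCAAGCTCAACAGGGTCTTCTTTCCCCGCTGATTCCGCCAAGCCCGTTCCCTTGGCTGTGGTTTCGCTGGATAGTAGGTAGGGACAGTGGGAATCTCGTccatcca
Rank 6, chr16:11144161-11144310: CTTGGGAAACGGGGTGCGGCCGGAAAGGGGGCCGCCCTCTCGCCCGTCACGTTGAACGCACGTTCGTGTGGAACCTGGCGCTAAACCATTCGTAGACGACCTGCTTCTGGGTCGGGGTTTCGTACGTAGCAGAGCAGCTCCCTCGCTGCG

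The sequences below carry a CTCF consensus in capitals. They are the 4 tallest such members and the only member within 50 kb of a listed adrenal gene, Pnmt, and each is written on the strand that reads the consensus from left to right.
Rank 10, chr8:20424756-20424905, minus strand: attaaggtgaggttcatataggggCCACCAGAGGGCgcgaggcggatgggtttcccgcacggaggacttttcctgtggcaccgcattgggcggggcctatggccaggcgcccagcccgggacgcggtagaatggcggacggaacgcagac
Rank 17, chr8:20122146-20122295, plus strand: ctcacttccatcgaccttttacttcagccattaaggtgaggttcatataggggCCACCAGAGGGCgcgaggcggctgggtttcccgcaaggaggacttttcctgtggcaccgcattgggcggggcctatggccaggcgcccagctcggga
Rank 36, chr7:73618391-73618540, minus strand: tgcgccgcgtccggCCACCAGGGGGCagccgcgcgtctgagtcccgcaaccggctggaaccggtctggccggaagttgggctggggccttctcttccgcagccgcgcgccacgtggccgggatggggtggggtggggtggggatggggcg
Rank 72, chr2:26640231-26640380, minus strand: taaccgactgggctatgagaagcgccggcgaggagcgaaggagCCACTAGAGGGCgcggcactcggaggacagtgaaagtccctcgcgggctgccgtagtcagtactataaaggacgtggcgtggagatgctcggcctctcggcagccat
Rank 251, chr11:98342691-98342840, plus strand: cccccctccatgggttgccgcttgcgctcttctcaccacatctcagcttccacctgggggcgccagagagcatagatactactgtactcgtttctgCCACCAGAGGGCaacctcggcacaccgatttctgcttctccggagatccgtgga

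Next come 3 members over arginine tRNA genes, with the tRNA gene in capitals and written on its own strand. They were chosen after their values were seen.
n-TRccg1, chr11:107012746-107012948, plus strand: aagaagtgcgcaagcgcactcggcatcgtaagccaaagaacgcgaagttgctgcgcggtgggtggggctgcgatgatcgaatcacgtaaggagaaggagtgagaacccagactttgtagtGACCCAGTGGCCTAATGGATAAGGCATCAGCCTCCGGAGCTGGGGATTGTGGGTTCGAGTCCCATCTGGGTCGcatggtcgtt
n-TRcct3, chr11:115413281-115413430, minus strand: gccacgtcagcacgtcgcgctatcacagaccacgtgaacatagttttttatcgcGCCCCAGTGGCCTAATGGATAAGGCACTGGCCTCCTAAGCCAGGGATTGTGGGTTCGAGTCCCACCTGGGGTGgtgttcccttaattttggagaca
n-TRccg2, chr17:23550253-23550410, minus strand: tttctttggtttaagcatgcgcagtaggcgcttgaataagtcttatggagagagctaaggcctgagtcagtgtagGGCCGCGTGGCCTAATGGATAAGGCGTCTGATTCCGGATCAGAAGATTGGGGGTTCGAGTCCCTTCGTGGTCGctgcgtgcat

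The last set shows promoter-type sequences, also chosen after their values were seen. Capitals mark TGACGTCA, the cAMP response element (CRE), in the first pair and GCGCNTGCGC, the consensus of NRF1 (a factor of genes for mitochondria and basic metabolism), in the others.
Rank 25 at Rn7s2, chr12:69361461-69361610, plus strand: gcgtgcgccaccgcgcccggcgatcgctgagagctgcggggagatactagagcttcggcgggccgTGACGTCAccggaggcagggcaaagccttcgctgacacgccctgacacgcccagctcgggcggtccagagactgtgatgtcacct
Rank 70 in Per1, chr11:69097081-69097230, plus strand: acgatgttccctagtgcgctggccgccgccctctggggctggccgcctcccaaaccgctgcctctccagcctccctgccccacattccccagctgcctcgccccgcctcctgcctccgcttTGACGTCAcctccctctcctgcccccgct
Rank 23 at Tmpo, chr10:91181766-91181915, minus strand: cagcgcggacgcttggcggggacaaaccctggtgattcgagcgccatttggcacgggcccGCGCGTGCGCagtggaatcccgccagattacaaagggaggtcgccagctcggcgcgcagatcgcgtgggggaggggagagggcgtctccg
Rank 34 at Malat1, chr19:5803596-5803745, minus strand: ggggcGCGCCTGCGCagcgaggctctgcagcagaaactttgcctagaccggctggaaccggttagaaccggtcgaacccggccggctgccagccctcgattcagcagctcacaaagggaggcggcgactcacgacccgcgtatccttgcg

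Heights of the 500 ran from 4.31 to 72.2 in replicate 1 (median 7.14) and from 4.42 to 79.4 in replicate 2 (median 6.61). The medians over all distal regions were 0.85 and 1.09. Every height was a whole number of steps of the authors' scale, within 0.05 of a step, and the members reached a median of 1345 steps in replicate 1 and 882 in replicate 2. The scale behind these steps is not given in the sources used here. Mean heights passed 20 in 10 members and 10 in 48 members. The 500 held 6.68% of the summed mean height of all distal regions, and the first 20 alone held 0.982%.

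**Figure D1:**
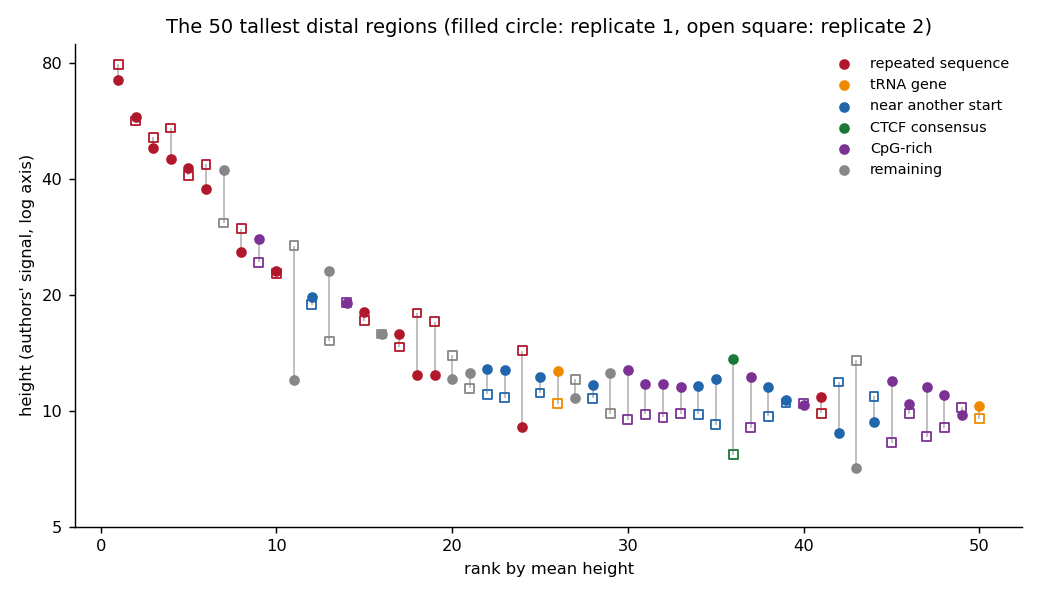
Heights of the 50 tallest distal regions by rank, on a log axis. Filled circles are replicate 1, open squares replicate 2, a grey line joins the same region, and colours give the class of each region. Mostly repeated sequence leads the ranking, and the regions at ranks 11, 36 and 43 show the wide gaps between libraries described in the text.

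The limit of the choice lay in a dense part of the ranking. The last members were chr5:30806201-30806400 near Mapre3 (mean height 5.84), chr13:75797921-75798140 near Glrx (5.83) and chr18:60978441-60978620 in an intron of Camk2a (5.83). The first regions outside it were chr11:70021501-70021760 in an intron of Dlg4 (5.83), chr6:91599101-91599300 at the noncoding gene Gm45218 (5.83) and chr12:52604741-52604940 near Arhgap5 (5.83). Members and regions next to the limit thus had nearly the same height.

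The tallest region, chr17:39846781-39846900, reached 72.2 in replicate 1 and 79.4 in replicate 2, and lay inside CT010467.1, which GENCODE annotates as a ribosomal RNA gene. All of its 36-base words occurred more than once on the chromosomes. Next came chr9:123461921-123462080 in an exon of Lars2 (58 and 56.6). The region at chr6:49236441-49236620, 21484 bp from the nearest start of Igf2bp3, had 48.2 and 51.3. The region at chr16:35981661-35981840, in an intron of Kpna1 and 520 bp from a start of the noncoding gene Gm15564, had 45 and 54.3. Both libraries placed these 4 regions above every distal region of lower rank. The gene names give only the place on the reference. Whether the repeated regions below the tallest match ribosomal RNA was not checked against a full sequence of it.

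Repetition was concentrated at the head of the ranking. Of the 20 tallest, 12 consisted mostly of repeated 36-base words (60%), against 4 of ranks 21 to 100 (5%) and 3 of ranks 101 to 500 (0.75%). Over the 500 this was 19 members (3.8%), against 1.16% of all distal regions. Alignment of each member to the reference chromosomes found 18 of the 20 tallest with at least 3 further alignments over at least 50% of their length, 8 of ranks 21 to 100 and 12 of ranks 101 to 500. No such alignment was found for 443 of the 500. How reads that match several places were placed is not given in the sources used here, and its part in these heights was not tested.

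Several of these regions were alike. A group of 7 members, at ranks 2, 3, 4, 14, 15, 20 and 103, was linked by alignments of 50 bp or more. Within it, ranks 2 and 3 matched on opposite strands over 59 bp at 98.3% identity, ranks 2 and 4 over 58 bp at 100%, and ranks 3 and 15 over 151 bp at 99.3%. Their mean heights still ran from 8.4 to 57.3. A group on chromosome 8 joined ranks 10, 17 and 62, 2 of which are the CTCF windows at chr8:20424756-20424905 and chr8:20122146-20122295 printed above. A group on the X chromosome near Erdr1 joined ranks 18, 19 and 102, between 8.42 and 15.2. No member aligned to mitochondrial DNA.

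The 2 regions of the first 20 with no further alignment both lay in exons of protein-coding genes. The region at chr15:99735641-99736040 in Cers5, which encodes a ceramide synthase, had heights of 42.2 and 30.7, or 36.5 ± 8.06 (SD, n = 2). The region at chr13:58177621-58177820 in Ubqln1, which encodes a ubiquitin-like protein of protein quality control, had 23.1 and 15.2. Both were taller in replicate 1. Neither held any of the 14 consensus sequences searched, neither was CpG-rich, and neither lay within 1 kb of another start.

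tRNA genes, which RNA polymerase III transcribes from promoters inside the gene, were frequent among the members. The start of a RefSeq tRNA gene lay inside 32 members (6.4%), against 0.406% of all distal regions, so 18.3% of the 175 distal regions with such a start were members. All 32 lay between protein-coding genes, 12 of them on chromosome 11, and 28 were CpG-rich. For all members the shares were 64.4% between protein-coding genes, 13.2% on chromosome 11 and 52.6% CpG-rich. The tallest was n-TNgtt14 at chr5:149228981-149229260, with 12.7 in replicate 1 and 10.4 in replicate 2. It was followed by n-TRccg1 (10.3 and 9.55), n-TIaat17 at chr17:83861821-83862060 (10.4 and 8.14) and n-TTcgt5 at chr16:13437181-13437420 (10.3 and 8.05). Replicate 1 was the higher library in 24 of the 32, and in 71.4% of all members. The letters in these names give the amino acid and anticodon, so the 32 include genes for arginine, leucine, threonine, proline and others.

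The 3 arginine tRNA genes printed above were each 73 bases long. n-TRccg1 and n-TRcct3 shared 62 of 73 positions, and n-TRcct3 and n-TRccg2 shared 50. Their regions had mean heights of 9.91, 6.64 and 6.37. A further RNA polymerase III gene, Rn7s2, which encodes the RNA of the signal recognition particle, held its start inside chr12:69361441-69361620, with heights of 12.2 and 11.1. Its window is the CRE sequence at rank 25.

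Starts that the rule did not consider were common. Another GENCODE transcript start lay within 1 kb of 124 members (24.8%), against 10.7% of all distal regions, and a RefSeq transcript start within 1 kb of 139 (27.8%), against 9.24%. By the nearest other GENCODE start, 78 of these members were at long noncoding RNAs (15.6% of the 500, against 4.02% of all distal regions) and 32 at other transcripts of protein-coding genes (6.4%, against 4.09%). Shares near the background were found for pseudogenes, with 6 members (1.2%, against 1.18%), for small or ribosomal RNAs, with 4 (0.8%, against 0.759%), and for other biotypes, with 4 (0.8%, against 0.639%). The examples that follow were chosen after their values were seen. Malat1, an abundant nuclear long noncoding RNA, had regions at chr19:5803561-5803780 (11.6 and 9.79) and chr19:5802581-5802760 (8.85 and 7.53). Snhg15, a host gene of small nucleolar RNAs, had its start 1 bp from chr11:6528761-6528960 (10.4 and 8.4), and Snhg8 had its start inside chr3:123508301-123508600 (7.7 and 7.57). Alternative starts of protein-coding genes included Tmpo, which encodes a protein of the nuclear lamina, where a RefSeq start lay inside chr10:91181741-91181940 (12.7 and 10.8). Of the 500, 61 lay 1 to 2 kb from a protein-coding start (12.2%), against 6.36%.

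CpG-rich windows, with at least 50% G or C and an observed over expected CpG ratio of at least 0.6, reached 76.2% at ranks 21 to 100 and 48.2% at ranks 101 to 500. The median content of G and C was 60.7% in the members and 53.3% in all distal regions. A class of 104 members was CpG-rich with no tRNA gene, other start or CTCF consensus and was not mostly made of repeated 36-base words, although some of it, such as ranks 9 and 14, had further alignments. It included chr11:117963461-117963680 near Socs3, an inhibitor of cytokine signalling (11.5 and 9.83), and chr19:53314221-53314440 in Mxi1, which encodes a partner of MAX (9.69 and 9.25). These examples were not the tallest of the class and were picked after their values were seen. This order of classes was set after the values were seen.

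**Figure D2:**
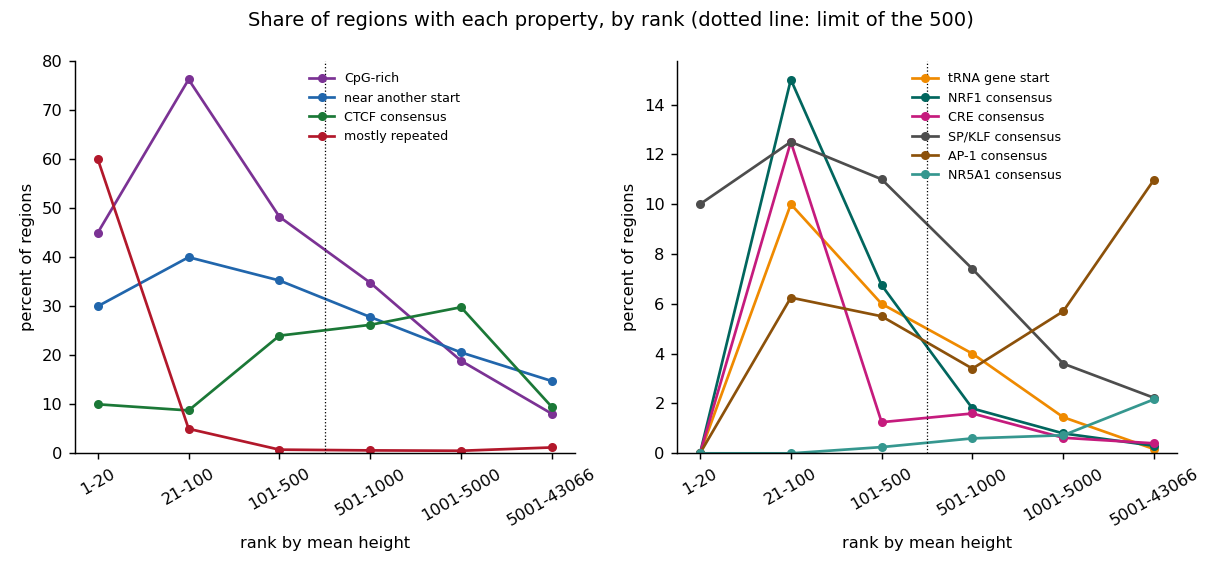
Percent of distal regions with each property in bins of rank by mean height, from ranks 1 to 20 down to ranks 5001 to 43066. The dotted line is the limit of the 500. Repeated sequence falls from 60% to 5% after the first 20, CpG-rich sequence peaks at 76.2%, CTCF matches peak at 29.8% of ranks 1001 to 5000 and are at 9.47% below, and NR5A1 and AP-1 matches have their highest shares in the last bin, at 2.17% and 11%.

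Promoter-type consensus sequences, all of which contain a CG, were more frequent among the members than among all distal regions. The members were also more often CpG-rich (52.6%, against 9.9%), and the part of base composition in these shares was not tested. All consensus sequences were searched on both strands of the 150 bp window, none contains another, and a match describes letters and not a bound site. GGGGCGGG, the sequence of SP and KLF factors, was found in 56 members (11.2%), against 2.52%. The NRF1 sequence was found in 39 (7.8%), against 0.453%, and CRE in 15 (3%), against 0.467%. CCGGAAGT, of ETS factors, was found in 11 (2.2%), against 0.369%, AANATGGCGG, of YY1, in 4 (0.8%), against 0.0906%, and CACGTG, the E-box, in 37 (7.4%), against 3.6%. CRE matches clustered high in the ranking, with 10 of the 15 at ranks 21 to 100.

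Most other sequences had lower shares in the members, some of them on few counts. AP-1 (TGANTCA), the sequence of FOS and JUN dimers, was found in 27 members (5.4%), against 10.3%. CEBP (ATTGCNNAA) was found in none, against 1.68%. Matches to AGATAAG, the sequence bound by the zinc finger factors of the GATA family, were found in 2 (0.4%), against 1.39%. NFI (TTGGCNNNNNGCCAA) was found in none, against 0.193%, so that less than 1 member would match the background. The glucocorticoid response element (GNACANNNTGTNC) was found in 2 (0.4%), against 0.625%. Both of these counts were near the background. NFY (CCAATCNG) was the exception, with 11 (2.2%), against 1.44%. Neither these sequences nor that of NR5A1 require a CG, and the part of base composition in their shares was not tested. Of the 500, 245 (49%) held none of the 14 sequences, against 66.8% of all distal regions.

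The single NR5A1 match lay in chr18:3004801-3004980, 118432 bp from Vmn1r238, with heights of 6.74 and 5.62 and 68.9% of its bases repeat-masked. Its 36-base words were mostly repeated elsewhere in the genome.

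**Figure D3:**
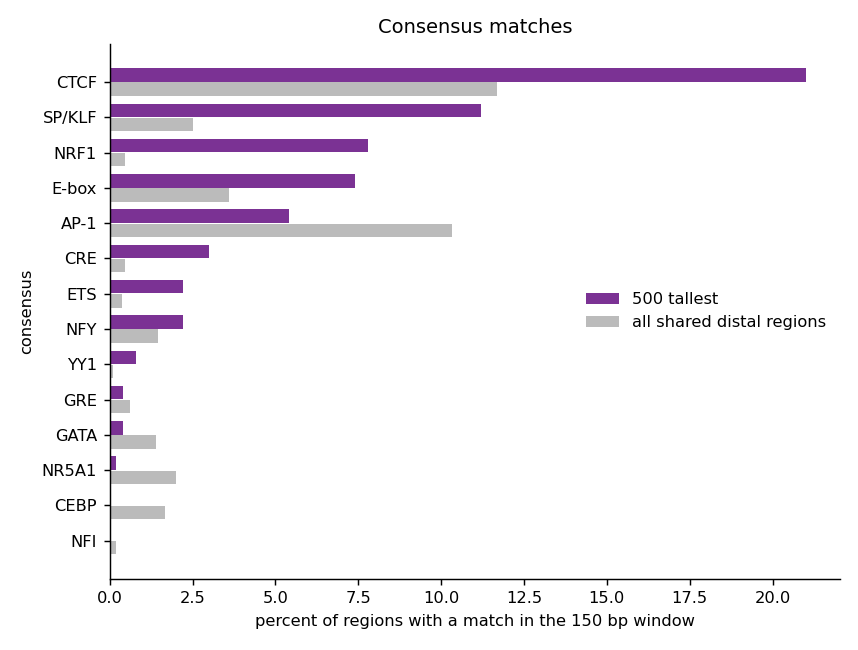
Percent of regions with a consensus match in the 150 bp window, for the 500 tallest regions (purple) and all 43066 shared distal regions (grey). CTCF, SP/KLF, NRF1 and CRE bars are longer for the 500, and AP-1, GATA, NR5A1 and CEBP bars are shorter.

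CTCF matches were found in 10% of the 20 tallest, 8.75% of ranks 21 to 100 and 24% of ranks 101 to 500. Below the limit their share was 26.2% of ranks 501 to 1000 and 29.8% of ranks 1001 to 5000, and then 9.47% of ranks 5001 to 43066. The commonest forms in the members were ccagcagggggc in 19, ccaccagggggc in 18 and ccagcagagggc in 14. The tallest CTCF member that was not mostly repeated, chr7:73618081-73618680, lay 76335 bp from Chd2 and had 13.6 in replicate 1 and 7.7 in replicate 2. It was followed by chr2:26640221-26640380 at the noncoding genes Snhg7os and Snhg7 (9.07 and 8.86).

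Footprints, short protected stretches that the authors called within open chromatin, overlapped every member in both libraries, against 85.9% of all distal regions. The share was also 100% at ranks 501 to 1000 and 99.95% at ranks 1001 to 5000, and it was 84% at ranks 5001 to 43066. Footprints came from the same libraries as the heights, and shares of matches under a footprint were not split by rank. All 105 CTCF members had a match under a footprint in both libraries, against 95.6% of the CTCF regions among all distal regions. The corresponding shares were 89.7% and 70.8% for NRF1, 85.7% and 47.4% for SP/KLF, and 48.1% and 18.7% for AP-1. They were also higher in the members for CRE, E-box, NFY and ETS. Members held a median of 4 footprints in each library, against 2 in replicate 1 and 3 in replicate 2 over all distal regions. The part of this difference in the shares was not tested. The longest stretch of positions listed under the authors' false discovery threshold had a median of 528 bp in replicate 1 and 647 bp in replicate 2, against 239 and 278 bp, while the median width was 200 bp in both sets. Members over tRNA genes had the longest stretches among the classes, with medians of 1044 and 1311 bp, and the 89 CTCF members that were not mostly repeated, over a tRNA gene or near another start had 335 and 412 bp.

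By place, 322 members lay between protein-coding genes (64.4%), against 51.4% of all distal regions, and 135 in introns (27%), against 41.5%. Coding exons held 12 (2.4%), against 3.28%, and other exons 31 (6.2%), against 3.75%. The tallest in a coding exon were chr9:20878161-20878520 in Angptl6 (8.94 and 8.61), chr2:91115161-91115320 in Spi1, a myeloid transcription factor (8.53 and 7.6) and chr8:71521761-71521940 in Ccdc194 (7.66 and 7.15). The median distance to a protein-coding start was 11977 bp, against 24039 bp. Only 4 members were mostly repeat-masked (0.8%), against 4.03%. Chromosome 11 held 66 members (13.2%), against 7.54% of all distal regions.

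Few members, and few distal regions in all, lay near the listed adrenal genes. The labelled tissue was checked at promoters: 18 of 22 steroidogenesis genes and 16 of 22 chromaffin genes had a shared region within 1 kb of a start, against 2 of 12 in each of the liver and kidney lists. Th, Dbh and Pnmt, enzymes of catecholamine synthesis, and Cyp21a1, Hsd3b1 and Mc2r, genes of steroid synthesis and its control, had none. Of the 500, 1 (0.2%) lay within 50 kb of a start of a gene in the steroidogenesis, cholesterol, chromaffin or zonation lists, against 0.606%. That region, chr11:98342681-98342860, lay 43590 bp from Pnmt, which makes adrenaline, and closer to Ppp1r1b, and had 7.84 and 5.79.

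Some immediate early genes and clock genes had more members nearby. Within 50 kb of 14 immediate early genes lay 8 members (1.6%), against 0.274% of all distal regions, and within 50 kb of 14 clock genes lay 6 (1.2%), against 0.241%. They stood near only 6 of the 14 immediate early genes and 4 of the 14 clock genes. Among the clock members was a tRNA gene region nearest Borcs6, 32017 bp from a Per1 start. The macrophage list had 2 members (0.4%), both near Spi1, against 0.0766%. Nr1d1, which encodes the clock repressor REV-ERB alpha, had chr11:98773761-98774180 in an intron (10.3 and 10.5), 1153 bp from its protein-coding start. Per1, a core clock gene, held chr11:69096981-69097260 in an intron (9.37 and 8.72), 1688 bp from its protein-coding start. Dbp, a clock output factor, had chr7:45707661-45707860 in an exon (8.45 and 9.29). The Dbp region lay 2377 bp from a protein-coding start and 29 bp from another Dbp transcript start. Fosb, of the FOS family, had chr7:19295921-19296100 (8.47 and 8.31), in an exon of Rtn2, 13500 bp from its start, and Fos had chr12:85486021-85486240 (8.65 and 7.44) 12131 bp away. The Per1, Dbp and Fos regions were not the tallest of their lists and were picked after their values were seen. Among other lists the tallest were chr2:91115161-91115320 for Spi1 and chr6:124903661-124903860 for Cd4 (9.19 and 7.7), 15440 bp away and nearest Lag3. Egfl7 had chr2:26640221-26640380, 48786 bp away. Col1a1 had chr11:94979041-94979200 (7.56 and 8.31), 42817 bp away and nearest Sgca. Pmp22 had chr11:63135701-63135920 (6.98 and 7.22), 2633 bp away. Cfd had chr10:79925361-79925540 (7.01 and 5.8), 34508 bp away and nearest Arid3a. Rplp0 had chr5:115538781-115538960 (6.3 and 6.39), 20507 bp away and nearest Pxn. No member lay within 50 kb of a listed erythroid, liver or kidney gene, and of all distal regions 0.0557%, 0.0813% and 0.118% did, so that less than 1 member in each list would match the background.

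Within 10 kb of another member lay 35 members. No such count was made for other distal regions, so whether this number is low or high was not tested. Among these members, 3 groups held 3 members each. These groups lay on the X chromosome near Erdr1, at chr1:86525281-86532640 beside Ptma (mean heights 6.65 to 9.21) and at chr19:5845361-5850440 near Neat1. Neat1 is a long noncoding RNA of nuclear paraspeckles, and mean heights there were 5.93 to 6.49.

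The libraries ranked these regions alike but not identically. The 500 tallest of each library shared 373 regions (74.6% of each), all of them members. Regions chosen on replicate 1 alone had a median of 6.53 in replicate 2, and regions chosen on replicate 2 alone had 7.01 in replicate 1. The log2 ratio of replicate 1 over replicate 2 had a median of 0.13 in the members (SD 0.25) and -0.21 in all distal regions (SD 0.48). Replicate 1 was higher in 357 members (71.4%), against 30.9% of all distal regions. More than 2-fold apart were 3 members (0.6%), against 7.11%.

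**Figure D4:**
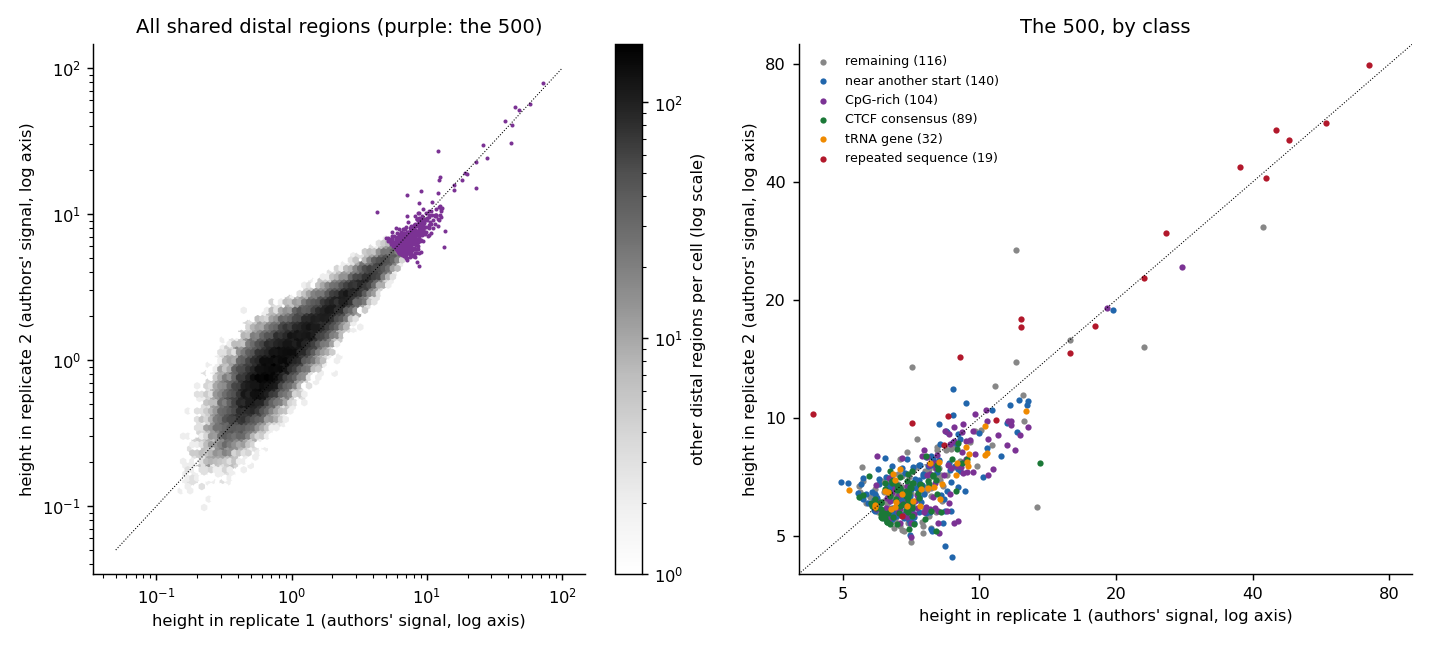
Height in replicate 1 against replicate 2, on log axes, for all shared distal regions (left, the 500 in purple, other regions as grey density) and for the 500 by class (right). The dotted line marks equal heights. Most members lie near it, and a few lie well off it, such as those at 12 against 26.9 and 13.4 against 5.92.

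The largest gaps towards replicate 2 were at chr9:3002041-3002220 (4.31 against 10.3), chrX:143482981-143483140 (12 against 26.9) and chr4:88641081-88641240 near Ifna13 (7.11 against 13.5). The first was fully repeat-masked and had 1206 further alignments, the second had 42 and the third had 5. The largest gaps towards replicate 1 were at chr10:126511601-126511820 (13.4 against 5.92), chr8:84639321-84639740 in a coding exon of Cacna1a (8.7 against 4.42) and chr15:38473801-38473980 near Azin1 (8.41 against 4.72), which had no further alignments. With 1 library per replicate, the error of a single height could not be estimated.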

How the data were processed

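The 2 deposited peak lists per library were read; the longer was used and the shorter was an alternative. Column 7 holds the deposited signal height, whose smallest spacing was 0.00531 for replicate 1 but 0.0075 for replicate 2. The deposited file index names normalisation by read depth for a signal track only, and how the peak heights were scaled is not given in the sources used here, so levels of the libraries may not be on 1 scale. The deposited footprint lists and the q-value (FDR) files, which list positions under the authors' threshold, were used per library. Which aligner and peak caller made them is not given in the sources used here. Read depth was not measured here, and whether the steps of the height scale follow it is not known.

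The longer lists held 98630 peaks in replicate 1 and 118249 in replicate 2. Peaks overlapping by at least 1 bp were merged, and distances were taken to 58745 protein-coding transcript starts of GENCODE vM21. RefSeq starts and sequence came from GRCm38. Coordinates are 1-based. Windows of 150 bp lay at the mean centre of the tallest peaks. Alignments used BLAST 2.17.0 (E-value limit 1e-10, and 1e-06 between members); stretches used bedtools 2.31.1. Code was tested on simulated data. The 16 gene lists held 210 symbols, all matched.

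No test was made, since heights chose the members and 1 group exists. Named regions were drawn from the 10 tallest, those next to the limit and the largest gaps between libraries. They were also drawn from the tallest by place, consensus, repeat, noncoding class, gene list and group. All other named regions were chosen after their values were seen, and not each is marked where it stands. Members and lists were chosen with earlier results of these data known. How hybrid alleles affected alignment was not examined.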

Additional observations from a re-analysis of the deposited data

How the results depend on the processing

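No paired analysis was possible because both libraries form 1 group. Alternatives changed 1 choice each, except that the lower of the scaled heights changed both the scaling of the libraries and the mean. Ranking on the mean of log2 heights kept 497 members, the shorter lists overlapped all 500, and the lower of the scaled heights kept 427. The shares with a CTCF consensus, CpG-rich sequence, introns, places between genes and footprints in both libraries stayed within 1.5 times under every alternative run. Those are shares of the members. With the shorter lists the share over all distal regions was 17.3% for CTCF and 12.7% for CpG-rich sequence, against 21% and 52.6% in the members.

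The median height was 7.96 for the 250 tallest and 5.83 for the 1000 tallest. Mostly repeated members were 7.2% of the 250 and 2.2% of the 1000, and 1.6% with 75-base words. NR5A1 matches were 0.4% with the lower scaled height, 0% of the 250, 0.4% of the 1000, and 0% without members with 3 or more copies or without mostly repeated members, both chosen after seeing the data. NFI matches were 0.1% of the 1000 and 0.2% in whole regions. Members near a listed adrenal gene were 0.4% with the lower scaled height, 0.4% beyond 5 kb from a coding start, 0% of the 250, 0.5% of the 1000, 0% within 20 kb and 0.6% within 100 kb. Members near another start were 0% beyond 1 kb from every annotated start, by construction. For each other change the cause was not tested.

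Ranking on replicate 1 or replicate 2 alone kept 450 and 423 members, and gave adrenal-gene shares of 0.2% to 0.4% and CTCF shares of 19.8% to 21%. The height in the library that did not choose the regions was 6.53 in replicate 2 and 7.01 in replicate 1. Median log2 ratios were 0.03 to 0.17.

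Limits: 1 library per replicate, 1 shared donor entry, unknown read length and placement of repeated reads, a reference genome that differs from 1 parental strain of the hybrid, and matches of short consensus sequences that do not show binding.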
